A study of Homo sapiens with 6 samples.

Results

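Transcripts of 10 immediate early genes were measured in KhES-1 cells kept in AKIT medium and in Essential 8 (E8) medium. The genes EGR1, EGR2, EGR3, FOS, FOSB, JUN, JUNB, IER2, IER3 and ATF3 were taken by symbol, and all 10 had a row among the 23346 gene rows of the RNA-seq table. KhES-1 is an established human embryonic stem cell line, so every library came from the same line. The AKIT group had 3 libraries and the E8 group, the control, also had 3, of which replicates 1 and 2 were analysed here. Both groups had the same culture surface, a laminin fragment spread at 0.5 µg for each square cm. The labels do not give the composition of AKIT. It is known as a medium without added growth factors that contains inhibitors of GSK3, of DYRK kinases and of calcineurin, whereas E8 supplies FGF2 and TGF-beta. Nothing in the labels says that the replicates came from separate cultures. The p-values therefore reflect the spread among these libraries alone, and that spread may be technical.

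Immediate early genes are transcribed within minutes of a stimulus without new protein synthesis. Growth factors such as FGF2 reach them through the ERK cascade, which activates ETS-family partners of serum response factor (SRF) bound at CArG boxes. Many of their products are transcription factors: EGR1 to EGR3 bind DNA through zinc fingers, while FOS and JUN proteins pair through leucine zippers to form AP-1. ATF3 is a related leucine zipper factor that is also induced by stress kinases and by ATF4. Calcineurin, acting through NFAT, induces EGR2 and EGR3 in T cells.

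Values are RPKM, reads in a gene scaled to its length in kb and to the total reads of the library. They rested on 16242864 to 23263095 reads per library, so that 1 read in a gene of 1 kb was worth 0.043 to 0.0616 RPKM. Over 14776 tested genes the root mean square distance between libraries, on the log2(RPKM + 1) scale, was 0.30 between AKIT replicates 1 and 3, 0.37 and 0.36 between AKIT replicate 2 and these, and 0.21 between the E8 libraries. AKIT replicate 2 also lay nearer to the E8 libraries, at 0.48, than the other AKIT libraries did, at 0.53. AKIT replicate 2 therefore stood apart, and results that rest on it are given with and without it. All 8 markers of pluripotent stem cells on the list were detected in every library. Their summed level was 3561 to 3693 RPKM in AKIT and 4265 to 4321 RPKM in E8. Of these markers, SOX2 and PODXL were lower in AKIT by the test given below, and 0 were higher. Marker lists of other cell types summed to 203 to 265 RPKM in AKIT and 344 to 346 RPKM in E8 for 8 fibroblast and mesenchyme genes, and to 391 to 424 RPKM in AKIT and 352 to 375 RPKM in E8 for 7 neural and neural crest genes. For 7 mesendoderm genes the sums were 5.81 to 9.13 RPKM in AKIT and 2.29 to 3.18 RPKM in E8, and for 6 trophoblast and amnion genes 3.31 to 11.1 RPKM in AKIT and 13.93 to 13.95 RPKM in E8. Most of the fibroblast and mesenchyme sum was THY1, at 203, 145 and 157 RPKM in AKIT, against 275 and 273 RPKM in E8. Most of the neural and neural crest sum was NES and TUBB3. LUM, DCN, TFAP2B and CGA were the members of these lists at 0 in both E8 libraries. In AKIT replicates 1, 2 and 3, LUM stood at 5.81, 1.83 and 0.0244 RPKM and DCN at 0.754, 0.0685 and 0 RPKM. TFAP2B stood at 2.40, 0.0596 and 0.0179 RPKM and CGA at 1.99, 0.102 and 0.611 RPKM. COL3A1 stood at 5.63, 2.15 and 0.141 RPKM in AKIT, against 0.0413 and 0 RPKM in E8. Other members went the other way, with COL1A1, THY1, PDGFRB, NGFR, TFAP2A and KRT7 lower in AKIT by the test given below. By the same test TUBB3 and FOXA2 were higher. The part of such cells in the results was not tested.

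Of the 10 genes, EGR1, EGR2, EGR3, FOS and IER2 fell in AKIT and none rose. All 10 passed the filter of a mean of at least 0.5 RPKM. EGR3 did so only through E8, with means of 0.356 RPKM in AKIT and 2.44 RPKM in E8. Its place among the tested genes thus rests on the group where it was high. "Rose" and "fell" are used of genes with a Benjamini-Hochberg adjusted p under 0.05 in limma's moderated test over all tested genes, two-sided. By this rule 11.7% of all tested genes were lower in AKIT and 8.22% were higher. At an unadjusted p under 0.05, 7 of the 10 were lower and 0 were higher, where 19.7% of all tested genes were lower and 16.3% higher. With voom on reads recovered from the RPKM values 7 were lower and 0 higher, where 12.8% of all tested genes were lower and 8.39% higher. In 7 of the 10, every AKIT library lay below both E8 libraries, as it did in 28.6% of all tested genes. Their median log2 difference was -0.87, beside -0.01 for all tested genes. Each log2 difference is that of log2(RPKM + 1), AKIT minus E8, and is given ± its standard error. The added 1 makes the changes of low genes look smaller.

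**Figure D1:**
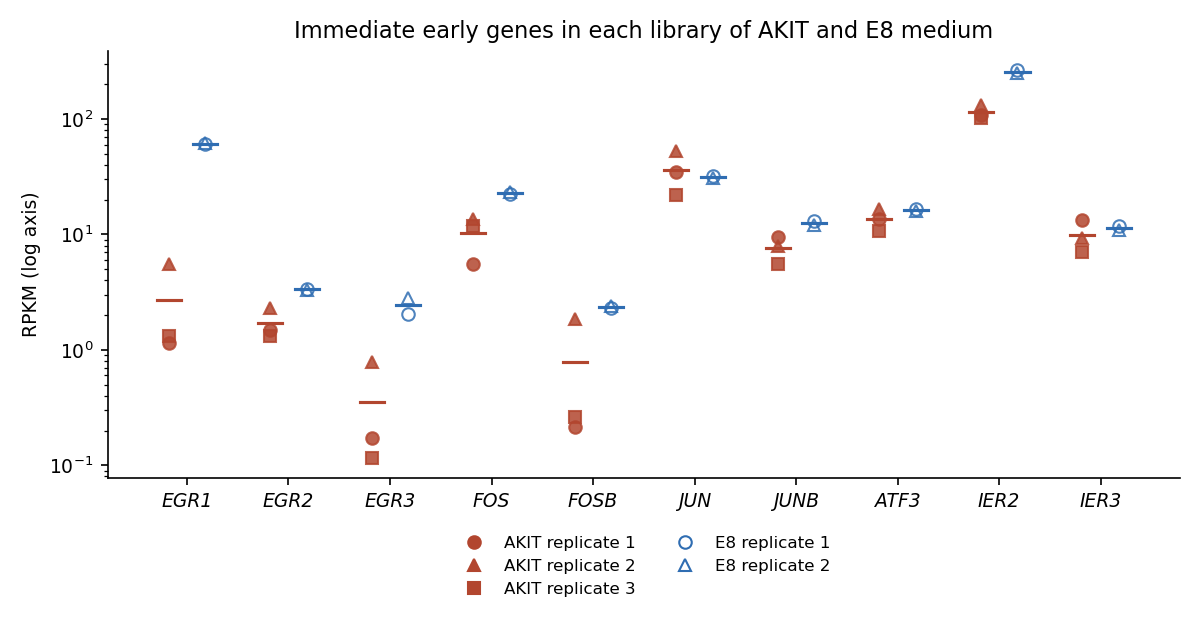
RPKM of the 10 immediate early genes in each library, on a log axis, with AKIT (filled) left of E8 (open) for each gene; horizontal bars are group means of 3 and 2 libraries. The groups do not overlap for EGR1, EGR2, EGR3, FOS, FOSB, JUNB and IER2, and they overlap for JUN, ATF3 and IER3.

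Of the EGR genes, EGR1 had the largest change. EGR1, which carries an ERK signal on to growth and differentiation genes, stood at 1.15, 5.59 and 1.32 RPKM in AKIT replicates 1, 2 and 3, against 60.1 and 61.6 RPKM in E8 replicates 1 and 2. Every AKIT library was below both E8 libraries, and AKIT replicate 2 was the highest of the AKIT libraries. These values rested on 84, 408 and 80 reads in AKIT and on 3329 and 3140 reads in E8. EGR1 averaged 2.69 ± 2.52 RPKM in AKIT (SD, n = 3) and 60.9 ± 1.08 RPKM in E8 (SD, n = 2), 22.7-fold lower in AKIT, with a log2 difference of -4.27 ± 0.45 (limma adjusted p = 0.00221). By this difference it ranked 2 of 14776 genes among those lower in AKIT. Among the tested genes of a library, EGR1 lay at percentiles 11.7, 39.2 and 13.8 by RPKM in AKIT, against 92.6 and 93.0 in E8. In bulk RNA, fewer cells that express a gene and less RNA per cell cannot be told apart.

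EGR2, a zinc finger factor of hindbrain patterning and myelination, stood at 1.49, 2.29 and 1.31 RPKM in AKIT replicates 1, 2 and 3, against 3.35 and 3.32 RPKM in the E8 libraries. The groups did not overlap, and EGR2 fell by 0.70 ± 0.18 on the log2 scale (limma adjusted p = 0.0342). Among the settings that ended the call were those in which AKIT replicate 1 (limma adjusted p = 0.0862), AKIT replicate 3 (0.0848) or either E8 library (0.197 each) was left out, and testing with no filter (0.0645). Across the alternatives its adjusted p was 0.00503 to 0.197. EGR3, a relative known for its part in muscle spindles and lymphocyte activation, stood at 0.172, 0.783 and 0.114 RPKM in AKIT, against 2.05 and 2.83 RPKM in E8. The AKIT values rested on 18, 82 and 10 reads, and the exact Poisson 95% intervals were 0.102 to 0.272, 0.622 to 0.971 and 0.0549 to 0.210 RPKM (counting error only). All 3 intervals lay below those of the E8 libraries, 1.75 to 2.39 and 2.46 to 3.24 RPKM. EGR3 averaged 0.356 ± 0.370 RPKM in AKIT (SD, n = 3) and 2.44 ± 0.552 RPKM in E8 (SD, n = 2), with a log2 difference of -1.37 ± 0.23 (limma adjusted p = 0.0105). Its call ended without E8 replicate 1 (limma adjusted p = 0.0617) or 2 (0.104), and its adjusted p lay between 0.00176 and 0.104 across the alternatives. Its log2 difference was -2.75 with a pseudocount of 0.1 and -3.19 with voom, since the added 1 weighs on low values.

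The balance between EGR genes also differed between the media, given here as a description. EGR1 made up 41.0%, 64.5% and 48.0% of the summed RPKM of EGR1 to EGR3 in AKIT replicates 1, 2 and 3, against 91.8% and 90.9% in the E8 libraries. The ratio of EGR1 to EGR2 was 0.774, 2.44 and 1.004 in AKIT, against 17.97 and 18.5 in E8. EGR1 and EGR2 were thus at like levels per length in AKIT replicates 1 and 3, where the E8 libraries held mostly EGR1. EGR4, the remaining EGR gene, was at 0.0725, 0.290 and 0.0434 RPKM in AKIT, against 0.334 and 0.830 RPKM in E8, and did not reach the filter.

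Promoter sequences are shown for EGR1 and EGR2 because both genes fell and both hold a CArG box near an annotated start. The RefSeq promoter table (GRCh38.p14, 250 bases before to 50 after a start) had 11 promoters for 8 of the 10 genes, all but EGR3 and IER3. The expression values were made on another build, so the sequences serve as a description of the loci. CArG boxes, searched on both strands by their usual consensus, occur in 1.29% of the 35116 promoters of this length, and 2 or more in 0.0313%. EGR1 has 2, CCATATTAGG and CCATATATGG, which begin 105 and 83 bases before the start (chr5:138465229-138465528, plus strand). EGR2 has 1 in the promoter of the 3rd of its 3 annotated starts, 71 bases before it (chr10:62816317-62816616, minus strand). None of the other 9 promoters holds one in this window. Capitals mark the CArG boxes and each TGACG, the core of a cAMP response element, on either strand (CGTCA where it lies on the other strand). TGACG occurs in 24.6% of all promoters.
EGR1: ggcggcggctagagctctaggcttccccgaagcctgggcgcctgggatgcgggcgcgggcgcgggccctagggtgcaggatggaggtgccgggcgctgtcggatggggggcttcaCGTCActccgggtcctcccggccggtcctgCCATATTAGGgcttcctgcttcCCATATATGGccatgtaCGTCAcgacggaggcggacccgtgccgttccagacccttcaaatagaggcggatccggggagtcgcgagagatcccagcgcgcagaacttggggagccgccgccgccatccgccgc
EGR2: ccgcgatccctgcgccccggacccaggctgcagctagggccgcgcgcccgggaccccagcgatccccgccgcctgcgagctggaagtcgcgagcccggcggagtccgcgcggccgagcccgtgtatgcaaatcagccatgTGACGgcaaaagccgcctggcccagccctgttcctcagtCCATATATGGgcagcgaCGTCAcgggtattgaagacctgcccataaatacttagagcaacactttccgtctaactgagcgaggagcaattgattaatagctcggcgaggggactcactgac

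FOS, the AP-1 subunit whose induction by growth factors is the classic immediate early response, stood at 5.50, 13.7 and 11.9 RPKM in AKIT replicates 1, 2 and 3, against 22.2 and 23.5 RPKM in E8 replicates 1 and 2. The groups did not overlap, and AKIT replicate 1 was the lowest library. FOS averaged 10.4 ± 4.31 RPKM in AKIT (SD, n = 3) and 22.8 ± 0.922 RPKM in E8 (SD, n = 2), and its log2 difference was -1.15 ± 0.32 (limma adjusted p = 0.0473). The call ended without AKIT replicate 3 (limma adjusted p = 0.0806), E8 replicate 1 (0.202) or E8 replicate 2 (0.229), with no filter (0.0882), and narrowly with pseudocounts of 0.1 (0.055) and 0.5 (0.0507), median-of-ratios scaling (0.0508) and limma without its trend (0.0554). Of 14 alternatives, 5 kept it, and the adjusted p lay between 0.0156 and 0.229.

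FOSB, a second FOS protein, stood at 0.216, 1.87 and 0.259 RPKM in AKIT replicates 1, 2 and 3, against 2.31 and 2.41 RPKM in E8. All AKIT libraries were below both E8 libraries, but AKIT replicate 2 lay far nearer to them than replicates 1 and 3, which had 19 reads each. With all 3 AKIT libraries FOSB did not pass (log2 difference -1.04 ± 0.36, limma adjusted p = 0.0886). Without AKIT replicate 2 it did (log2 difference -1.44, limma adjusted p = 0.00134), as it did with voom (0.035), and its adjusted p lay between 0.00134 and 0.310 across the alternatives. With a pseudocount of 0.1 its log2 difference was -2.02, and with voom -2.26. The ratio of FOS to FOSB spread from 7.33 in AKIT replicate 2 to 45.95 in AKIT replicate 3, against 9.60 and 9.73 in the E8 libraries.

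The FOS promoter is shown because FOS fell and its window of 300 bases has no CArG box and 1 TGACG (chr14:75278578-75278877, plus strand). Bases more than 250 before a start were not searched. A CArG box further upstream, of FOS or of the other genes shown, would thus be missed. The IER2 promoter is shown because IER2 had the smallest standard error of the 10 genes, and its window also has no CArG box. It holds 1 TGACG and 1 CCGGAA, an ETS core found in 17.2% of all promoters on either strand (chr19:13150161-13150460, plus strand). The JUN promoter is shown for a gene that did not pass the test, and it too holds 1 TGACG and no CArG box (chr1:58783998-58784297, minus strand). Capitals mark TGACG on either strand. None of the 11 promoters holds TGACGTCA, TGANTCA or GCGTGGGCG, the full cAMP response element, the AP-1 site and an EGR site, which occur in 1.85%, 7.71% and 0.795% of all promoters. A match, or the lack of one, describes the letters of the window and says nothing of binding.
FOS: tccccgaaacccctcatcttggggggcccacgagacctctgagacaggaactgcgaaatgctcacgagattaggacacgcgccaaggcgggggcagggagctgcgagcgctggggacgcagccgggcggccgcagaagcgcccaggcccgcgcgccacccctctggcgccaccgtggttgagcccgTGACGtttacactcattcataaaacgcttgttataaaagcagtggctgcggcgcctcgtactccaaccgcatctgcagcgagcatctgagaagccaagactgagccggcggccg
IER2: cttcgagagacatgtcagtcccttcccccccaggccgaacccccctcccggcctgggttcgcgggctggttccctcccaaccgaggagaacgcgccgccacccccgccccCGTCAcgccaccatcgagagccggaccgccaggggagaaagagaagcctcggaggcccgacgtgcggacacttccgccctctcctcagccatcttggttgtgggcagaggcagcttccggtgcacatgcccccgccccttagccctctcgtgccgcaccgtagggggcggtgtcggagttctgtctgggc
JUN: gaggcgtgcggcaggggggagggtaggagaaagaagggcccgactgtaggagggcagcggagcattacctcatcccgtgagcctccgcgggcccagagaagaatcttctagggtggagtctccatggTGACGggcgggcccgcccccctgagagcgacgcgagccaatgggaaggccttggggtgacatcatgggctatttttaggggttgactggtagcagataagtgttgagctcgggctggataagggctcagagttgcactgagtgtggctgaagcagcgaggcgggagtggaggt

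JUN and JUNB, partners of FOS proteins in AP-1, did not pass the test. JUN stood at 34.6, 52.8 and 21.7 RPKM in AKIT replicates 1, 2 and 3, against 32.2 and 30.9 RPKM in E8, so that AKIT libraries lay on both sides of the E8 libraries. Its log2 difference was 0.11 ± 0.32 (limma adjusted p = 0.829) with a 95% interval of -0.63 to 0.86, and it was -0.19 without AKIT replicate 2 and 0.43 without AKIT replicate 3. JUNB stood at 9.45, 8.00 and 5.51 RPKM in AKIT, against 13.04 and 12.001 RPKM in E8. The groups did not overlap, and the log2 difference was -0.67 ± 0.20 (limma adjusted p = 0.0551). Leaving out AKIT replicate 1 (limma adjusted p = 0.04) or AKIT replicate 2 (0.0473) let JUNB pass, as did voom (0.0397) and a minimum mean of 2 RPKM (0.049). Its adjusted p lay between 0.0397 and 0.276 across the alternatives. JUN made up 33.1%, 43.6% and 25.8% of the summed RPKM of JUN, JUNB and JUND in AKIT, against 20.3% and 22.4% in E8. The ratio of FOS to JUN was 0.159, 0.259 and 0.548 in AKIT, against 0.688 and 0.760 in E8.

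ATF3, a stress-induced relative of the AP-1 proteins, stood at 13.7, 16.8 and 10.6 RPKM in AKIT replicates 1, 2 and 3, against 16.5 and 15.8 RPKM in E8. The groups overlapped, with a log2 difference of -0.25 ± 0.18 (limma adjusted p = 0.358) and a 95% interval of -0.66 to 0.17. IER2, a small nuclear protein induced by growth factors, stood at 108, 133 and 101 RPKM in AKIT, against 265 and 249.9 RPKM in E8. It was the most abundant of the 10 genes in every library, and all AKIT libraries were below both E8 libraries. IER2 averaged 114 ± 16.8 RPKM in AKIT (SD, n = 3) and 257 ± 10.4 RPKM in E8 (SD, n = 2), a log2 difference of -1.18 ± 0.13 (limma adjusted p = 0.00282). IER3, a regulator of cell survival with a name like that of IER2, stood at 13.4, 9.36 and 7.11 RPKM in AKIT, against 11.8 and 11.02 RPKM in E8. The groups overlapped, with AKIT replicate 1 above both E8 libraries, and the log2 difference was -0.22 ± 0.22 (limma adjusted p = 0.519, 95% interval -0.75 to 0.31). A p that misses the threshold does not show that JUN, ATF3 or IER3 was at the same level in both media. EGR1 and IER2 passed under all 14 alternatives, with adjusted p of 2.12e-05 to 0.0346 and 0.000434 to 0.0479.

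**Figure D2:**
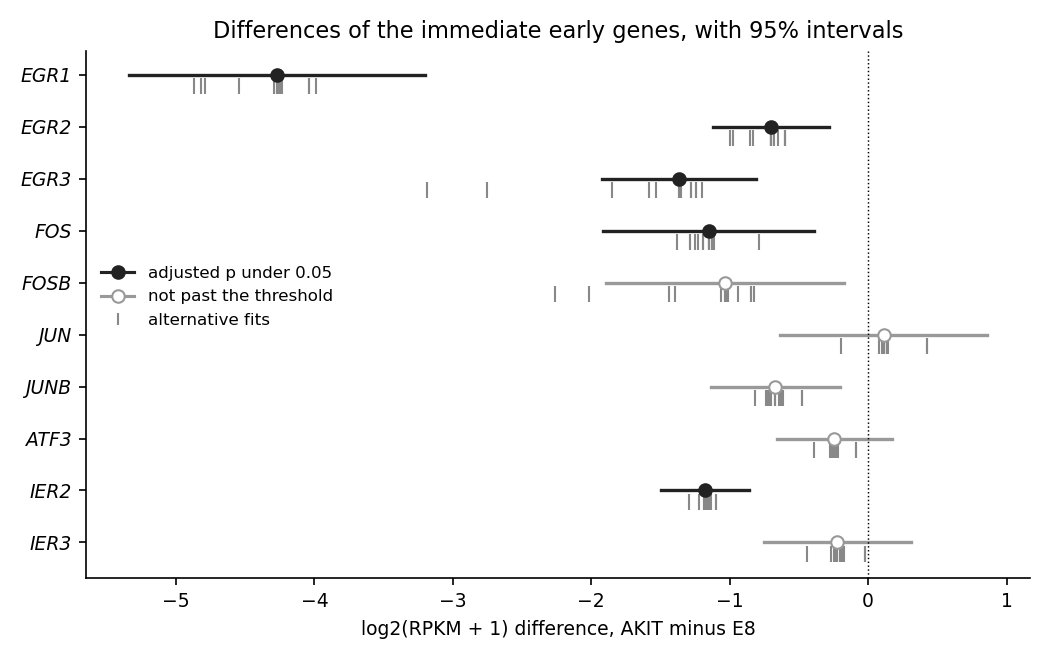
Difference in log2(RPKM + 1) of each gene, AKIT minus E8, with its 95% interval from limma (3 against 2 libraries); filled points have an adjusted p under 0.05 and the ticks below are the same difference in the alternative fits. EGR1 lies at -4.27, EGR2, EGR3, FOS and IER2 between -0.70 and -1.37, and the interval of JUN spans 0.

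The order of the genes by RPKM, which is per length, also differed. In AKIT the order of the means was IER2, JUN, ATF3, FOS, IER3, JUNB, EGR1, EGR2, FOSB and EGR3. In E8 it was IER2, EGR1, JUN, FOS, ATF3, JUNB, IER3, EGR2, EGR3 and FOSB. From ATF3 downwards, each gene in the AKIT order overlapped with the next across libraries, and IER2 and JUN did not. In E8 only EGR3 and FOSB overlapped with each other among neighbours. EGR1 thus stood second in E8, at 60.9 RPKM, and seventh in AKIT, at 2.69 RPKM.

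**Figure D3:**
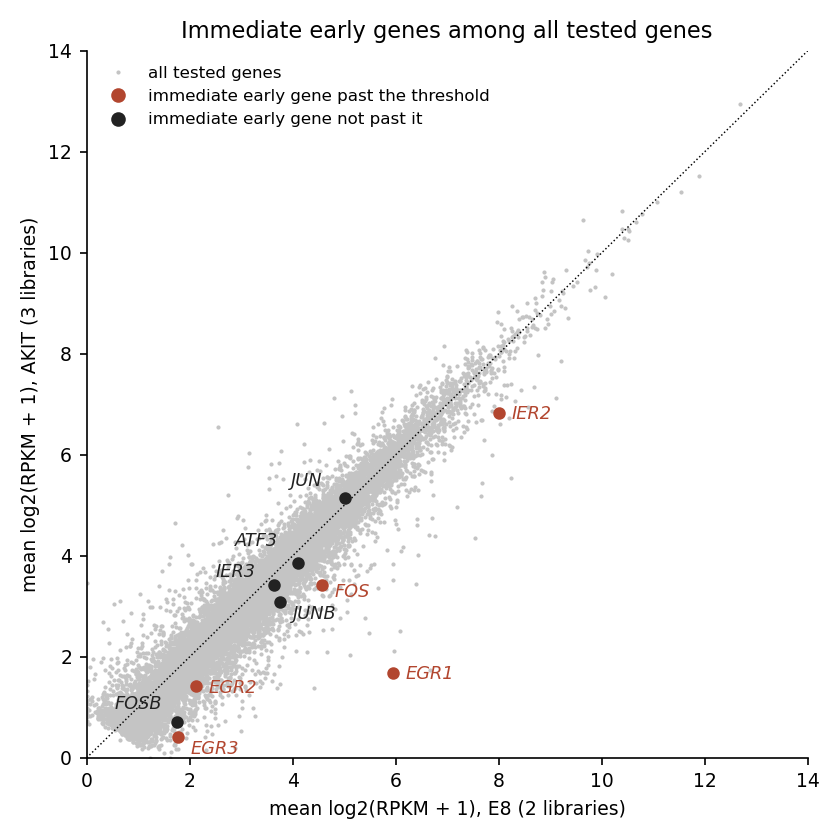
Mean log2(RPKM + 1) of every tested gene (grey, 14776 genes) in AKIT (vertical axis, 3 libraries) against E8 (horizontal axis, 2 libraries), with the immediate early genes marked and the dotted line at equality. EGR1 lies far below the line, and JUN, IER3 and ATF3 lie near it.

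Within AKIT, replicate 2 was the highest AKIT library for 8 of the 10 genes, all but JUNB and IER3, and the lowest for 0. Over all tested genes replicate 2 was the highest AKIT library for 34.7% and the lowest for 40.1%. Of the 7 genes with every AKIT library below both E8 libraries, 6 had replicate 2 as their highest AKIT library, as did 40.3% of all 4224 tested genes with that separation. AKIT replicate 2 held 7.85 times the mean of the other AKIT libraries for FOSB, 5.47 times for EGR3 and 4.53 times for EGR1. For JUN, EGR2, FOS, ATF3, IER2 and JUNB it held 1.87, 1.64, 1.57, 1.38, 1.27 and 1.07 times, and for IER3 0.913 times. Against the E8 mean, EGR1 reached 1.89%, 9.19% and 2.16% in AKIT replicates 1, 2 and 3, so that replicate 2 too was far below E8. FOSB reached 9.16%, 79.1% and 10.98% of the E8 mean. Without AKIT replicate 2, EGR1, EGR2, EGR3, FOS, FOSB, JUNB and IER2 fell, 7 of the 10, where 17.8% of all tested genes were lower. Without E8 replicate 1 or E8 replicate 2, 2 of the 10 fell in each case, EGR1 and IER2, and 1.72% and 1.7% of all tested genes were lower. With only 1 E8 library the fit takes that library to vary like the AKIT libraries. The cause of the spread within AKIT was not tested.

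**Figure D4:**
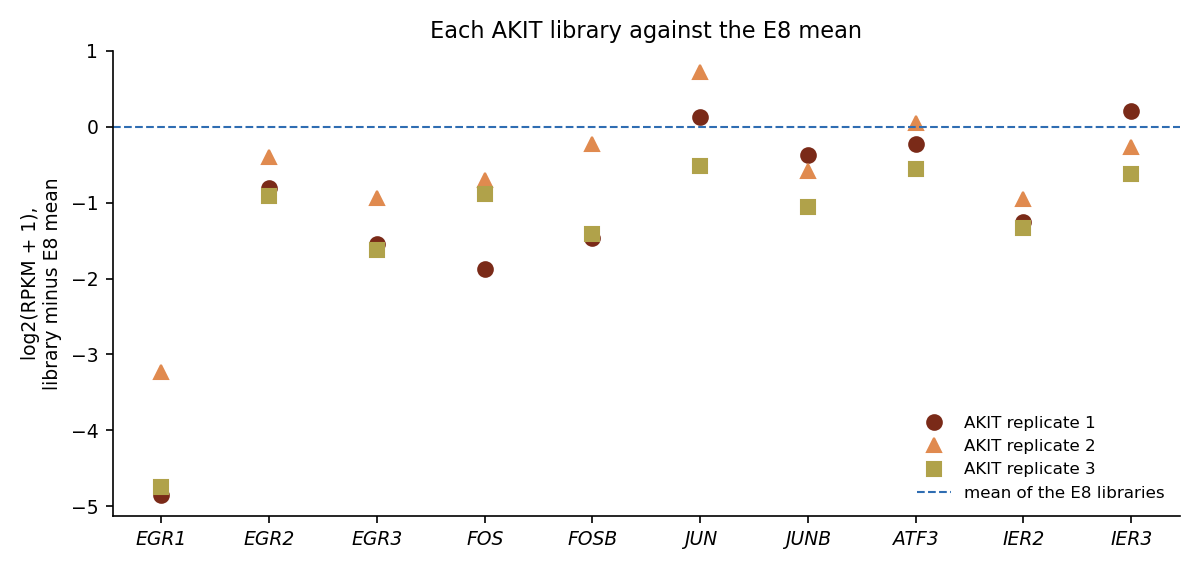
Log2(RPKM + 1) of each AKIT library minus the mean of the 2 E8 libraries (dashed line at 0) for the 10 genes. AKIT replicate 2 (triangles) is the highest AKIT library for 8 of them, and all 3 AKIT libraries lie below the E8 mean for EGR1, EGR2, EGR3, FOS, FOSB, JUNB and IER2.

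Heat shock genes, a list of 8 that can mark stress in handling, went the other way within AKIT. AKIT replicate 2 was the lowest AKIT library for all 8, as it was for 40.1% of all tested genes. Between the media 1 of the 8 fell and 0 rose, where 11.7% of all tested genes fell and 8.22% rose. At an unadjusted p under 0.05, 4 were lower and 1 higher, beside 19.7% and 16.3% of all tested genes. With voom 2 were lower and 0 higher, beside 12.8% and 8.39%. Without AKIT replicate 2, 1 fell and 2 rose, and without AKIT replicate 1, 2 fell and 0 rose. In these settings 17.8% and 8.5% of all tested genes fell, and 2132 of 14747 and 791 of 14783 rose. HSPA1A, an inducible HSP70 gene whose near-identical copy HSPA1B makes its count uncertain, averaged 8.95 ± 2.46 RPKM in AKIT (SD, n = 3) and 15.5 ± 0.354 RPKM in E8 (SD, n = 2) (limma adjusted p = 0.0382). Among the settings that ended that call were testing with no filter and leaving out AKIT replicate 3 or either E8 library, and its adjusted p was 0.0176 to 0.212 across the alternatives. The part of handling in the levels of the immediate early genes was not tested.

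Other genes of the same response were described by lists. Of 34 tested immediate early genes beyond the 10, of 38 in the table, 13 fell and 4 rose, against 11.7% and 8.22% of all tested genes. Their median log2 difference was -0.22. CTGF, a matricellular gene also called CCN2, stood at 39.7, 115 and 54.0 RPKM in AKIT replicates 1, 2 and 3, against 229.96 and 235 RPKM in E8 (log2 difference -1.87 ± 0.39, limma adjusted p = 0.0193). SOCS3, an inhibitor of JAK-STAT signalling, averaged 11.3 ± 2.39 RPKM in AKIT (SD, n = 3) and 36.8 ± 0.912 RPKM in E8 (SD, n = 2), a log2 difference of -1.64 ± 0.17 (limma adjusted p = 0.00195). The others that fell, named after their values were seen, were CYR61, CSRNP1, TIPARP, NFKBIZ, IER5, ZFP36L1, MYC, SGK1, ZFP36, PHLDA1 and GADD45B, with log2 differences of -1.42 to -0.75. KLF4, a zinc finger factor of naive pluripotency, rose to 13.4 ± 1.31 RPKM in AKIT (SD, n = 3), against 2.02 ± 0.307 RPKM in E8 (SD, n = 2). ARC, SIK1 and KLF6, also named after their values were seen, rose as well. ARC averaged 8.38 RPKM in AKIT and 3.67 RPKM in E8, and the log2 difference of SIK1 and KLF6 was 0.76 each. The calls of this list thus went both ways, and those of CSRNP1 and NFKBIZ lay at the threshold, at limma adjusted p = 0.0498 and 0.0496. The call of CTGF ended without AKIT replicate 3 or without either E8 library, within an adjusted p of 0.000434 to 0.125 across the alternatives. Of the 13 that fell, 10 had AKIT replicate 2 as their highest AKIT library, as did 41.0% of all 1736 tested genes that fell. In this list 16 fell and 6 rose without AKIT replicate 2. The counts were 8 and 4 without AKIT replicate 1, and 5 and 4 without AKIT replicate 3. Of all tested genes 17.8%, 8.5% and 7.55% fell in these settings, in the same order. Those that rose were 2132 of 14747, 791 of 14783 and 684 of 14802 tested genes. With either E8 library left out, far fewer genes passed, in this list as among all tested genes.

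Of the other AP-1 subunits, 2 of 11 tested fell and 0 rose, with 3 lower and 1 higher at an unadjusted p under 0.05 and 2 lower and 0 higher with voom. Of all tested genes 11.7% fell and 8.22% rose, and at the unadjusted p 19.7% were lower and 16.3% higher. With voom 12.8% were lower and 8.39% higher. These shares also stand beside the EGR cofactors that follow. JUND, the JUN protein made without a stimulus in many cells, averaged 59.3 ± 1.98 RPKM in AKIT (SD, n = 3) and 104 ± 12.7 RPKM in E8 (SD, n = 2), with a log2 difference of -0.80 ± 0.11 (limma adjusted p = 0.00428). BATF2, a leucine zipper factor of immune cells, averaged 0.568 ± 0.221 RPKM in AKIT (SD, n = 3) and 1.77 ± 0.104 RPKM in E8 (SD, n = 2) (limma adjusted p = 0.015). The call of BATF2 ended with either E8 library left out, and that of JUND without E8 replicate 1. Most calls among all tested genes ended in these settings too. Of 4 tested EGR cofactors, NAB2 and NAB1 fell, by 0.75 ± 0.13 and 0.46 ± 0.10 on the log2 scale (limma adjusted p = 0.0115 and 0.0255), and 0 rose (0 at an unadjusted p under 0.05, and 0 with voom). Both encode corepressors that bind EGR proteins, and NAB2 is known as an EGR1 target. Without AKIT replicate 3, 1 of the EGR cofactors fell, where 7.55% of all tested genes fell. Their calls ended with either E8 library left out, as did most calls among all tested genes.

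Of the 8 tested genes for SRF and its partners, 1 fell and 1 rose, where 11.7% of all tested genes fell and 8.22% rose. ELK3, an ETS-family partner of SRF, averaged 7.38 ± 0.574 RPKM in AKIT (SD, n = 3) and 10.6 ± 1.20 RPKM in E8 (SD, n = 2). FHL2, a LIM protein that binds SRF, averaged 21.4 ± 2.43 RPKM in AKIT (SD, n = 3) and 13.4 ± 0.671 RPKM in E8 (SD, n = 2). Neither passed with either E8 library left out, and ELK3 also did not pass without AKIT replicate 3. Without AKIT replicate 2, 3 of the 8 fell and 1 rose, where 17.8% of all tested genes fell and 2132 of 14747 rose. Of 22 genes of the ERK cascade, 3 fell and 2 rose, where 11.7% of all tested genes fell and 8.22% rose. At an unadjusted p under 0.05, 7 were lower and 5 higher, where 19.7% of all tested genes were lower and 16.3% higher. The median log2 difference of this list was -0.01. FGFR1, an FGF receptor, fell by 0.69 ± 0.16 and SHC1, an adaptor, by 0.49 ± 0.09 on the log2 scale (limma adjusted p = 0.0269 and 0.0115), while HRAS rose by 0.47 ± 0.10 (0.0232). The remaining calls, named after their values were seen, were the fall of MAP2K1 and the rise of ARAF. Without AKIT replicate 2 this list had 5 falls and 5 rises, where 17.8% of all tested genes fell and 2132 of 14747 rose. Without AKIT replicate 1 it had 2 and 2, where 8.5% fell and 791 of 14783 rose. Without AKIT replicate 3 it had 1 and 0, where 7.55% fell and 684 of 14802 rose. The calls of this list ended with either E8 library left out, as did most calls among all tested genes. Of 15 genes of the JNK and p38 cascade, limma called 0 in either direction, beside 11.7% lower and 8.22% higher of all tested genes. At an unadjusted p under 0.05, 2 were lower and 1 higher, beside 19.7% and 16.3%, and voom called 0. Quantile normalization called 1 lower and 1 higher, and leaving out AKIT replicate 2 called 1 lower. Of all tested genes 10.5% and 17.8% were lower in these settings, and 1420 of 14776 and 2132 of 14747 were higher. The smallest p in that list belonged to MAPKAPK2 (log2 difference -0.29 ± 0.09, limma adjusted p = 0.0636) and MAPK11 (0.35 ± 0.14, 0.109). Of 10 genes of the ATF4 pathway, which can induce ATF3, 3 fell and 0 rose, beside 11.7% and 8.22% of all tested genes. At an unadjusted p under 0.05, 4 were lower and 0 higher, beside 19.7% and 16.3%. With voom 3 were lower and 0 higher, beside 12.8% and 8.39%. ASNS, the asparagine synthetase, averaged 17.7 ± 3.75 RPKM in AKIT (SD, n = 3) and 40.2 ± 1.48 RPKM in E8 (SD, n = 2), and CHAC1 and TRIB3 fell by 0.80 ± 0.13 and 0.75 ± 0.20 on the log2 scale. The calls of that list ended with either E8 library left out, as did most calls among all tested genes.

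**Figure D5:**
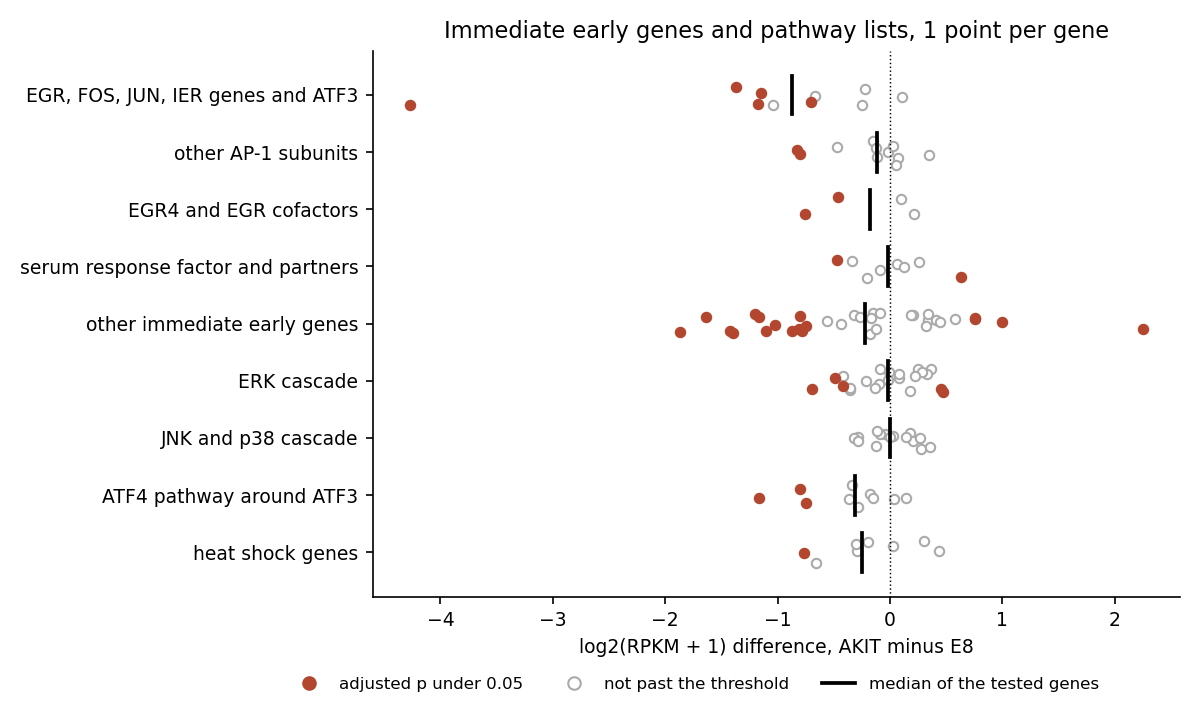
Difference in log2(RPKM + 1) of each tested gene, AKIT minus E8, for the 10 immediate early genes (top row) and the 8 pathway lists; filled points have an adjusted p under 0.05 and black bars are list medians. The median of the 10 genes is -0.87, and that of the ERK cascade is -0.01.

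The genes most like EGR1, FOS and JUN were taken by the root mean square distance between log2(RPKM + 1) profiles over the 5 libraries, each centred on its own mean. Nearest to EGR1 were PRICKLE1, a planar cell polarity gene, at 0.28, DUSP6, a phosphatase of ERK, at 0.45, and NPTX1, a neuronal pentraxin, at 0.54. PRICKLE1 stood at 2.27, 9.17 and 1.41 RPKM in AKIT, against 60.8 and 62.98 RPKM in E8, and as with EGR1 replicate 2 was the highest AKIT library. Of the other 9 of the 10 genes, EGR3 lay nearest to EGR1, at 1.47. Nearest to FOS were SNORA45 at 0.16, CYR61, a matricellular gene, at 0.18, and SNORA69 at 0.19. CYR61 stood at 51.2, 113 and 80.4 RPKM in AKIT, against 206 and 213 RPKM in E8. Nearest to JUN were SNORA24 at 0.04, CDH6, a cadherin, at 0.06, and SNORD50B at 0.07. CDH6 was low, at 0.627, 1.27 and 0.0601 RPKM in AKIT replicates 1, 2 and 3, against 0.443 and 0.345 RPKM in E8. It had as few as 10 reads in a library, and at such levels the added 1 makes its changes look smaller. The snoRNA rows lie within host genes, had as few as 1 to 9 reads in a library, and are uncertain because counting by strand is not stated.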

How the data were processed

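Total RNA of KhES-1 cells was sequenced, per the labels' protocols. The authors deposited RPKM values for 23346 gene symbols, and the submitters' processing notes name hg19 and GRCh37. The aligner, the counter, the annotation and strandedness were not given in the sources used here. Columns were matched to samples by title, and E8 replicate 3 was not analysed here.

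Low RPKM values are whole multiples of 1 read, from which 16242864 to 23263095 reads per library were recovered. All 19892 genes above 0 gave whole reads within 0.02 reads. Each gene length was found by a search for whole reads, so genes above 0 in few libraries could meet this by chance. The chi-square per gene was 3.31 between the E8 libraries and 16.6 to 31.7 between AKIT libraries, where sampling alone gives 1, so each library counted as 1 replicate.

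The 14776 genes whose mean over the 5 libraries reached 0.5 RPKM were tested on log2(RPKM + 1). The tool was limma 3.58.1 in R 4.3.3, its variance trend switched on, with Benjamini-Hochberg adjustment at 0.05 and no covariate. It was tested on simulated data with the same spread in every library, which does not cover the unequal spread of the AKIT and E8 libraries. An exact permutation test of 3 against 2 libraries cannot go below 0.2 and was not used. Alternatives were quantile normalization, voom on the recovered reads, pseudocounts of 0.5 and 0.1, scaling by the median of ratios, the trend switched off, testing unfiltered genes or those averaging 2 RPKM, a replicate block and leaving out each library.

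The genes and lists were chosen with earlier results of these data known. Named were the 10 genes and, from each pathway list, up to 3 called genes by size of change or, where none was called, the 2 with the smallest p. The 3 nearest profiles to EGR1, FOS and JUN were named too. Older symbols in the table (CTGF, CYR61, MKL1, MKL2 and T) were used as they stand.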

Additional observations from a re-analysis of the deposited data

How the results depend on the processing

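Of 138 fits of the 10 genes under alternatives, 114 kept the direction and the side of the threshold, 17 lost the call, 6 gained it and 1 turned direction. That was JUN, whose difference spanned -0.19 (without AKIT replicate 2) to 0.43 (without AKIT replicate 3) when each library was left out. The count of the 10 genes that fell, 5, was 3 with no filter and 3 with the replicate block, where 7.63% and 5.58% of all tested genes fell, against 11.7% without these changes. It was 2 to 7 when each library was left out, where 1.7% to 17.8% of all tested genes fell. The count that rose was 0 throughout, 0 to 0 when each library was left out. Their median difference, -0.87, was -1.08 with a pseudocount of 0.1 and -1.09 with voom, and -1.07 to -0.72 with each library left out. Over the 8 pathway lists, with 11, 4, 8, 34, 22, 15, 10 and 8 tested genes, 25 genes fell and 7 rose. Of all tested genes 11.7% fell and 8.22% rose. The list counts were 11 and 4 with the replicate block, where 5.58% of all tested genes fell and 492 of 14776 rose. They were 11 to 34 and 5 to 14 with each AKIT library left out, the highest of each without AKIT replicate 2. In those settings 7.55% to 17.8% of all tested genes fell, and 684 to 2132 genes rose. With either E8 library left out far fewer passed, in these lists as among all tested genes. The replicate block ended the calls of EGR2, FOS and HSPA1A (limma adjusted p = 0.101, 0.0532 and 0.0789), and it gives the same differences as leaving out AKIT replicate 3, which has no E8 partner. Replicate numbers are not stated to pair the libraries, and deviations of libraries with the same number had correlations of -0.0013 and 0.0254. The deviations of the 2 E8 libraries mirror each other, so these values are a weak check and do not settle whether libraries were paired. Leaving out E8 replicate 3 was not run, since it was not analysed here, and the E8 spread rests on 2 libraries. With a minimum mean of 2 RPKM, EGR3 and FOSB were not tested and the median was not computed. Depth limits EGR3 and FOSB in AKIT replicates 1 and 3, with 10 to 19 reads.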
